A study of Arabidopsis thaliana with 40 samples.

Results

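The comparison described here is between the aerial parts of Arabidopsis thaliana seedlings labelled nobiro6 and those of the Col-0 wild type (wt), and the members are the 4 shoot libraries titled nobiro6 and the 4 titled wt, 8 of the 40 RNA-seq libraries in the series. Per the labels, nobiro6 is a suppressor mutant isolated in the bz1728 background, with the added lesion given only as a letter; bz1728 is a double mutant of BZIP17 and BZIP28 made with the T-DNA lines SALK_004048 and SALK_132285; nbr6-t1 is the T-DNA line GABI_172C03; and wt carries none of these alleles. Each mutant is a single line, so other differences carried by that line cannot be told apart from its named allele. All groups were raised alike on agar plates (22 °C; humidity 65%; 16 h of light a day) after 3 d in the cold at 4 °C, and the age is stated once as 12 d and once as 13 days from sowing. There are 4 shoot libraries each of nobiro6, bz1728, nbr6-t1, taf12-t1 (a further T-DNA line, WiscDsLoxHs044_12E, whose libraries were in the same fit) and wt, and the labels do not say whether these came from separate plates or plants, so p-values measure only the spread between these libraries. The deposited tables of the nobiro6 libraries carry another line number in their names, and those of nbr6-t1 another mutant name; the groups follow the sample titles.

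The unfolded protein response of plants works through membrane-anchored bZIP factors and the kinase-ribonuclease IRE1. BZIP17 and BZIP28 leave the endoplasmic reticulum (ER) membrane when misfolded proteins build up, are cut in the Golgi by the proteases S1P and S2P, and enter the nucleus, where they induce chaperones such as BiP, calreticulin and calnexin. IRE1 splices the mRNA of a related factor, BZIP60. TAF12B, the gene hit in nbr6-t1, encodes a subunit of TFIID, the general factor that places RNA polymerase II at promoters. The question the comparison addresses is what remains different from wild type in the suppressor shoot.

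BZIP17 and TAF12B transcripts were low in the nobiro6-labelled shoots, whereas BZIP28 transcripts, which were missing from bz1728, were present. BZIP17 had 3.54, 2.32, 1.04 and 2.86 CPM (estimated counts per 1000000, with TMM scaling) in the nobiro6-labelled shoots, against 25.0, 29.5, 31 and 30.5 CPM in wt shoots. All 4 nobiro6 values lay far below all 4 wt values, a log2 fold change of -3.53 ± 0.18 (SE; adjusted p 7.2e-13), and they did not differ detectably from the 2.80 ± 0.762 CPM (SD, n = 4) in bz1728 shoots (adjusted p 0.82). Here and below an adjusted p is from edgeR's quasi-likelihood F-test with Benjamini-Hochberg adjustment over all genes tested, and a gene is said to rise, fall or change where it is under 0.05.

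BZIP28 had 24.3, 25.8, 25.7 and 31.6 CPM in the nobiro6-labelled shoots, against 34.4, 32.5, 29.1 and 41.9 CPM in wt shoots. The groups overlapped, and the level fell by 0.36 ± 0.11 on the log2 scale (adjusted p 0.04), a call lost in 12 of 17 alternatives, among them DESeq2 and 6 of the 8 fits with 1 library left out. In bz1728 shoots BZIP28 had 0 counts in all 4 libraries, so that the nobiro6-labelled shoots, with 523 counts in all, were at least 182-fold higher, measured against a limit of 3 counts over the group. The next locus, AT3G10810, gave the same pattern, with 619 counts in the nobiro6-labelled shoots and 1 in bz1728 shoots, a ratio of 645 with a 95% counting interval of 115 to 25500. In roots the BZIP28 level was 13.9 ± 3.36 CPM in nobiro6-labelled and 72.1 ± 3.73 CPM in wt libraries (SD, n = 4 each). The labels place nobiro6 in the bz1728 background, whose own shoot libraries had no BZIP28 reads. Which BZIP28 allele the nobiro6-labelled plants carried was not tested. The libraries are therefore called nobiro6-labelled throughout, and each direction below is one of libraries with that label. Whether the BZIP28 transcripts are intact was not tested, since the tables hold 1 value per locus.

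TAF12B had 20.2, 23.7, 18.3 and 15.6 CPM in the nobiro6-labelled shoots, against 45.2, 44.5, 49.4 and 55.6 CPM in wt shoots. The fall was 1.32 ± 0.11 on the log2 scale, and the direct test against the T-DNA line nbr6-t1, at 14.2 ± 2.39 CPM (SD, n = 4), did not pass (log2 difference 0.46 ± 0.13, adjusted p 0.11). Its paralog TAF12 gave a log2 difference of -0.03 ± 0.15. BGAL9, a member of the beta-galactosidase family of cell wall enzymes, had 0.844, 0.928, 1.66 and 0.879 CPM in the nobiro6-labelled shoots, against 53.8, 48.5, 46.1 and 49.2 CPM in wt shoots, a fall of 5.50 ± 0.16 (adjusted p 1.8e-18). It stood at 46.4 ± 3.49 CPM in bz1728, 60.8 ± 1.33 CPM in nbr6-t1 and 49.4 ± 3.23 CPM in wt shoots (SD, n = 4 each), so the low level was seen in the nobiro6-labelled line alone among these 4 genotypes (adjusted p 4.5e-18 against bz1728 and 4.1e-19 against nbr6-t1).

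**Figure D1:**
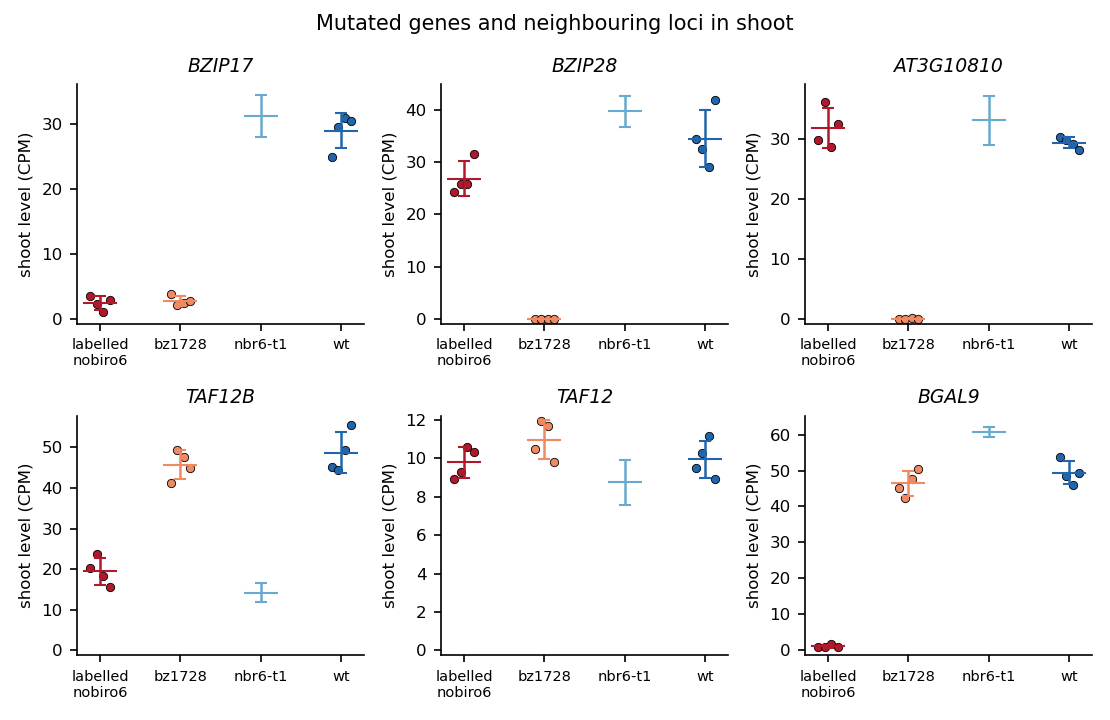
Level in CPM of 6 genes (BZIP17, BZIP28, AT3G10810, TAF12B, TAF12 and BGAL9) in shoots labelled nobiro6, bz1728, nbr6-t1 and wt; points are libraries and bars are mean ± SD over 4 libraries, with only the bar shown for nbr6-t1. BZIP28 stands at 0 in bz1728 and between 24.3 and 31.6 CPM in the nobiro6-labelled shoots, while BGAL9 is at most 1.66 CPM in the nobiro6-labelled shoots.

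Over the whole transcriptome, 2110 of 17382 genes tested differed between nobiro6-labelled and wt shoots, or 12.1%. Of these, 637 were higher (3.66% of genes tested) and 1473 were lower (8.47%), 88 and 455 of them by 2-fold or more. With limma on log2(TPM + 1) the median of all genes moved by 0.113 and the split turned, to 1829 higher and 872 lower. The median absolute log2 change of the called genes was 0.62, and in 15.5% of genes tested the 4 nobiro6-labelled and the 4 wt values did not overlap. Library totals were 4.12 to 5.64 M counts in the nobiro6-labelled shoots and 7.58 to 12.9 M in wt shoots, so 1 count stood for 0.177 to 0.243 CPM and 0.0775 to 0.132 CPM, and an absent gene is bounded less tightly in the nobiro6-labelled shoots. Chloroplast-encoded genes took 2.67 to 3.03% of counts in nobiro6-labelled and 3.1 to 3.53% in wt shoots, and 25 of the 83 tested were lower. In bulk tissue, fewer cells of a type and less RNA per cell cannot be told apart.

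The tissue label was checked against marker genes. The 38 nuclear photosynthesis genes summed to 102700 to 115000 CPM in nobiro6-labelled and 106900 to 121400 CPM in wt shoots. The 15 root markers summed to 90.11 to 160.4 CPM in nobiro6-labelled and 275.8 to 623.6 CPM in wt shoots, nearly all from PYK10, the beta-glucosidase of ER bodies, which is also made in seedling cotyledons and hypocotyls. Without PYK10 the sums were 3.71 to 8.30 CPM and 8.23 to 12.7 CPM, against 1055 to 1264 CPM and 1341 to 1528 CPM in roots of the same genotypes, and 2 of the 15 markers were at 0 in the nobiro6-labelled and 2 in the wt shoots. Seed storage genes summed to 0 to 19.0 CPM in nobiro6-labelled and 0 to 37.1 CPM in wt shoots, and the floral regulators AP1, LFY and FUL to 0.415 to 2.42 CPM and 1.89 to 2.53 CPM. The part of the lower root-marker sum in any result below was not tested.

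The ER genes separated into a group that rose and a group that fell. Of 10 genes typical of acute ER stress, 5 rose in the nobiro6-labelled shoots and none fell, with a median log2 difference of 0.736 against 0.00523 over all genes tested. Of 20 ER folding genes, 12 fell and 2 rose, with a median of -0.372. With 1 library left out, 9 to 14 folding genes fell and 5 to 6 stress-type genes rose. Over the other settings these counts were 8 to 12 and 4 to 6. The calls of AT5G07340 and PDIL2-1, both among the folding genes that fell, were lost in 15 and 6 of 17 alternatives. None of the 12 genes of ER-associated degradation and ER export passed the test in edgeR, with a median of 0.12; 2 had an unadjusted p under 0.05, both higher, and 4 were called higher by limma on TPM, 0 by DESeq2. List sizes count the members that passed the filter on low counts. Beside the shares of all genes given above (3.66% higher, 8.47% lower), 50% of the stress-type genes were called higher and 60% of the folding genes lower.

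The ER stress response element, which reads CCAAT and, after 10 bases of any kind, CACG on either strand, is the textbook binding site of BZIP28 with the CCAAT-binding factor NF-Y. It was found in the 250 bases before the start of 5 of the 20 folding genes and 2 of the 10 stress-type genes. Over all 27444 such windows it was found in 0.689%, and over the 17272 windows of genes tested in 0.926%. The share was 25% both in the folding list and in its 12 genes that fell, of which 3 had a match. The stress-type genes with a match were BIP3 and PDIL1-2, and neither was among those that rose. The windows of 2 folding genes that fell are printed here 5′ to 3′ from RefSeq (TAIR10.1), with each match in capitals, to show where it stands. P58IPK, a DnaJ co-chaperone, has 2 matches that begin 119 and 59 bases before its start (chr5:749851-750100, plus strand), and CRT1, the lectin chaperone calreticulin, has 1 that begins 68 bases before its start (chr1:21092710-21092959, minus strand). A match is a stretch of letters and shows no binding.

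P58IPK: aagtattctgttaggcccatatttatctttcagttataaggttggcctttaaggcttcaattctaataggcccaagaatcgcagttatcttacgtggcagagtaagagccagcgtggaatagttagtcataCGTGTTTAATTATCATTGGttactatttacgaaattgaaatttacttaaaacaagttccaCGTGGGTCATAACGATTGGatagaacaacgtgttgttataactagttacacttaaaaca
CRT1: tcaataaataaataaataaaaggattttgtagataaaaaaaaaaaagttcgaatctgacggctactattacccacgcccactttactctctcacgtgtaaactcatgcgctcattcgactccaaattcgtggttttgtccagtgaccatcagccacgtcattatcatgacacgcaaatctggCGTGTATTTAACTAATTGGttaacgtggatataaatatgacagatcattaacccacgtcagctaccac

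Among the folding genes, CRT1 had 88.4, 75.0, 85.9 and 91.4 CPM in the nobiro6-labelled shoots, against 124, 137, 130.4 and 132 CPM in wt shoots. The groups did not overlap (log2 -0.62 ± 0.07, adjusted p 7.6e-07), and the level was above that of bz1728 shoots, at 67.9, 69.1, 67.8 and 68.4 CPM (0.32 ± 0.07, adjusted p 0.0021). CNX1, the membrane-bound calnexin, had 111, 109, 95.3 and 102 CPM in the nobiro6-labelled shoots, against 156, 166, 187 and 166 CPM in wt shoots (-0.69 ± 0.08). BIP1, an ER HSP70, had 185, 153, 144 and 146 CPM in the nobiro6-labelled shoots, against 217, 243, 264 and 258 CPM in wt shoots (-0.65 ± 0.10). Each of these genes was lower in every nobiro6-labelled library than in any wt library. BIP2 (-0.75 ± 0.13) shares 38.0% of its 31-base stretches with other loci, most with BIP1, so the split of reads between the pair is uncertain. P58IPK (-0.61 ± 0.12), the co-chaperone ERDJ3B (-0.77 ± 0.12) and its partner SDF2 (-0.83 ± 0.14) fell as well, and the deepest fall in the list was that of the disulfide isomerase PDIL2-2, which averaged 3.91 ± 0.537 CPM in nobiro6-labelled and 9.93 ± 1.98 CPM in wt shoots (SD, n = 4 each; -1.35 ± 0.25). The 2 members that rose catalyse disulfide formation: the isomerase PDIL2-3 (0.49 ± 0.09) and the oxidase ERO2 (0.50 ± 0.15). The groups did not overlap in 11 of the 12 genes that fell and in both that rose. Among all 2110 called genes they did not overlap in 1687.

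Among the stress-type genes, BZIP60 had 56.0, 60.6, 52.3 and 47.9 CPM in the nobiro6-labelled shoots, against 24.9, 26.0, 30.2 and 29.3 CPM in wt shoots (0.97 ± 0.11, adjusted p 1.8e-06). SEC31A, a coat component of the vesicles that leave the ER, had 12.5, 9.75, 8.51 and 4.39 CPM in the nobiro6-labelled shoots, against 2.40, 1.44, 1.90 and 0.539 CPM in wt shoots (2.45 ± 0.31). NAC103, a transcription factor of the unfolded protein response, had 2.36, 2.09, 4.15 and 3.3 CPM in the nobiro6-labelled shoots, against 0.505, 0.331, 0.474 and 0.944 CPM in wt shoots (2.40 ± 0.42). In each the lowest nobiro6-labelled value was above the highest wt value. The co-chaperone ERDJ3A (1.14 ± 0.21) and the small GTPase SARA1A (1.02 ± 0.22) rose without overlap too. BIP3, the stress-specific BiP, did not follow them: it had 1.01, 0.232, 0.415 and 0 CPM in the nobiro6-labelled shoots, against 0.126, 3.98, 5.77 and 2.97 CPM in wt shoots (-2.82 ± 1.28, adjusted p 0.18). Of the 8 sensors and factors tested, BZIP60 rose and BZIP17 fell, and BZIP28 fell by the marginal call given above. IRE1A (-0.00 ± 0.11), IRE1B (0.05 ± 0.12) and the protease gene S1P (-0.09 ± 0.11) did not pass the test.

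**Figure D2:**
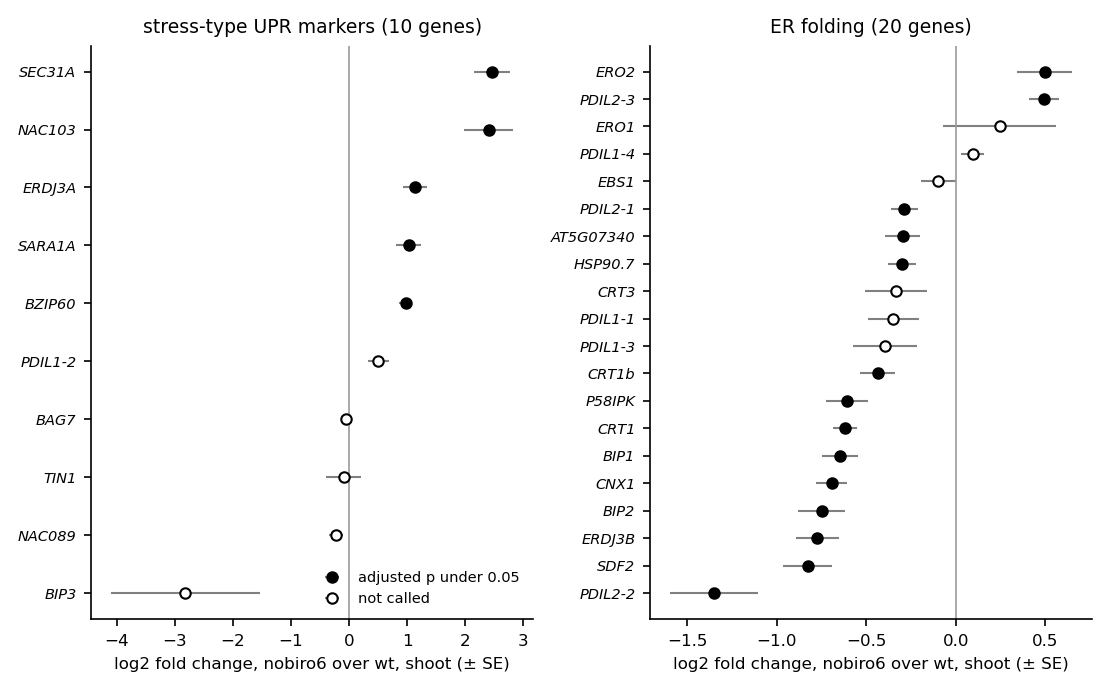
Log2 fold change, nobiro6-labelled over wt shoots, of the 10 stress-type genes and the 20 ER folding genes; points are fitted values, bars are SE, and filled points are called (edgeR, adjusted p under 0.05). The 5 called stress-type genes lie between 0.97 and 2.45, and 12 folding genes are called below 0.

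Tested directly against bz1728, 3644 genes differed in the nobiro6-labelled shoots, or 21% of those tested (8.12% higher, 12.8% lower). In the folding list 4 genes were higher than in bz1728 and none lower; these were CRT1, CRT1b (0.31 ± 0.10), ERDJ3B (0.43 ± 0.13) and ERO2 (0.63 ± 0.16). In the stress-type list 3 genes were lower than in bz1728 and none higher. They were NAC103 (2.97 ± 0.939 CPM in nobiro6-labelled and 8.82 ± 1.57 CPM in bz1728 shoots, SD, n = 4 each; -1.57 ± 0.32), SARA1A (-0.67 ± 0.21) and NAC089 (-0.54 ± 0.12). BZIP60 (0.07 ± 0.11) and SEC31A (-0.63 ± 0.26) did not pass against bz1728. Against nbr6-t1, in which BZIP17 was 31.2 ± 3.21 CPM and BZIP28 39.7 ± 3.02 CPM (SD, n = 4 each), 9 folding genes were lower and none higher, and 3 stress-type genes were higher: BZIP60 (0.85 ± 0.12), ERDJ3A (1.59 ± 0.23) and SEC31A (5.15 ± 0.49). Over all genes tested against nbr6-t1, 0.466% were lower and 0.247% higher. The fitted SEC31A value rests on a very low level in nbr6-t1 shoots, so its size is uncertain.

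Genes of the phosphate starvation response rose together. Plants short of phosphate induce high-affinity transporters, phosphatases, sensors with an SPX domain, and enzymes that replace membrane phospholipids with galactolipids and sulfolipids. Of 24 such genes, 16 rose and 1 fell in the nobiro6-labelled shoots, with a median log2 difference of 1.37 against 0.00523 over all genes. This is 66.7% of the list called higher, beside 3.66% of all genes tested. The groups did not overlap in 15 of the 16, beside 1687 of all 2110 called genes.

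The factor PHR1 binds the motif GNATATNC, called P1BS. It was present in the same 250-base window of 7 of the 24 genes (29.2%) and of 6 of the 16 that rose (37.5%). The share was 5.46% over all windows and 5.37% over those of genes tested. The windows of SPX3, an SPX-domain sensor (chr2:18606160-18606409, plus strand), and GDPD1, a glycerophosphodiester phosphodiesterase of lipid recycling (chr3:350011-350260, minus strand), are shown because each holds 2 matches and both genes rose. The matches begin 213 and 90 bases before the start of SPX3, and 127 and 63 bases before that of GDPD1 (RefSeq, TAIR10.1, 5′ to 3′, matches in capitals).

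SPX3: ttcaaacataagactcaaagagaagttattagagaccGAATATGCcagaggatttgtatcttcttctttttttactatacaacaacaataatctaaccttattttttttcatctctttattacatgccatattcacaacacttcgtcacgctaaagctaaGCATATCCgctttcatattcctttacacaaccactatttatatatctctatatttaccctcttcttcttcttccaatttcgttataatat
GDPD1: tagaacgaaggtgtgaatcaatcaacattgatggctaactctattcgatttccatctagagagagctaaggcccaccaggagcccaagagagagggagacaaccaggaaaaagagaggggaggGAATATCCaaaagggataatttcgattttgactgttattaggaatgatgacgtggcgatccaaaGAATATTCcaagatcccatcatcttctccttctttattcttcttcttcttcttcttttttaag

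SPX3 had 1.69, 1.86, 0.830 and 9.23 CPM in the nobiro6-labelled shoots, against 0, 0.221, 0.237 and 0.809 CPM in wt shoots (3.39 ± 1.0, adjusted p 0.035). One nobiro6-labelled library stood well above the other 3, and the lowest of them was close to the highest wt value. SPX1 averaged 73.2 ± 31 CPM in nobiro6-labelled and 21.8 ± 9.41 CPM in wt shoots (SD, n = 4 each; 1.76 ± 0.39). Among transporters, PHT1;4 had 17.2, 18.1, 7.06 and 34.9 CPM in the nobiro6-labelled shoots, against 3.79, 5.08, 1.5 and 4.72 CPM in wt shoots (2.40 ± 0.43, adjusted p 0.0013), without overlap. PHF1, which lets such transporters leave the ER, rose by 0.67 ± 0.15. Among the enzymes that release phosphate, PAP17 had 90.4, 101, 63.5 and 143 CPM in the nobiro6-labelled shoots, against 25.4, 45.5, 30.2 and 44.4 CPM in wt shoots (1.45 ± 0.28). The phosphatase genes PS2 (3.00 ± 0.64) and PEPC1 (2.99 ± 0.70) rose further than PAP17 in fitted value.

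The lipid genes moved with them. GDPD1 had 96.9, 117, 65.8 and 187 CPM in the nobiro6-labelled shoots, against 17.8, 53.1, 23.4 and 38.8 CPM in wt shoots (1.81 ± 0.41, adjusted p 0.0088). MGD3 (3.06 ± 0.66) and MGD2 (1.57 ± 0.36), the galactolipid synthases of starved cells, the phospholipase PLDP2 (1.83 ± 0.38) and SQD1, which makes the sulfolipid head group (0.86 ± 0.18), all rose. The non-coding RNA IPS1, a decoy of the microRNA miR399, had 20.2, 4.18, 4.98 and 18.7 CPM in the nobiro6-labelled shoots, against 0, 0.552, 1.66 and 0.270 CPM in wt shoots (4.02 ± 0.73). The single member that fell, named after its values were seen, was PHO1, the exporter that loads phosphate into the xylem (-1.05 ± 0.27; 0 or 1 called with 1 library left out).

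The size of the response varied between libraries. Summed over the 24 genes it was 979, 900.1, 661.4 and 1348 CPM in the nobiro6-labelled shoots, 1863, 1641, 2069 and 1101 CPM in bz1728 shoots, and 480.9, 535.4, 417.9 and 473.7 CPM in wt shoots. The lowest nobiro6-labelled sum was above the highest wt sum, and bz1728 overlapped the nobiro6-labelled shoots. Nobiro6 replicate 4 was the highest of its group in 13 of the 16 genes that rose, and replicate 3 the lowest in 15. With any 1 library left out, 13 to 16 genes were called higher. Against bz1728, 7 of the 24 genes were lower and 1 higher in the nobiro6-labelled shoots, with a median of -0.642, PAP17 among those lower (-1.26 ± 0.27, adjusted p 0.0031). Against nbr6-t1, 1 gene was called, PHT1;4 (2.08 ± 0.44, adjusted p 0.042), with a list median of 0.755. Over all genes 12.8% were lower and 8.12% higher against bz1728, and 0.713% were called against nbr6-t1.

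**Figure D3:**
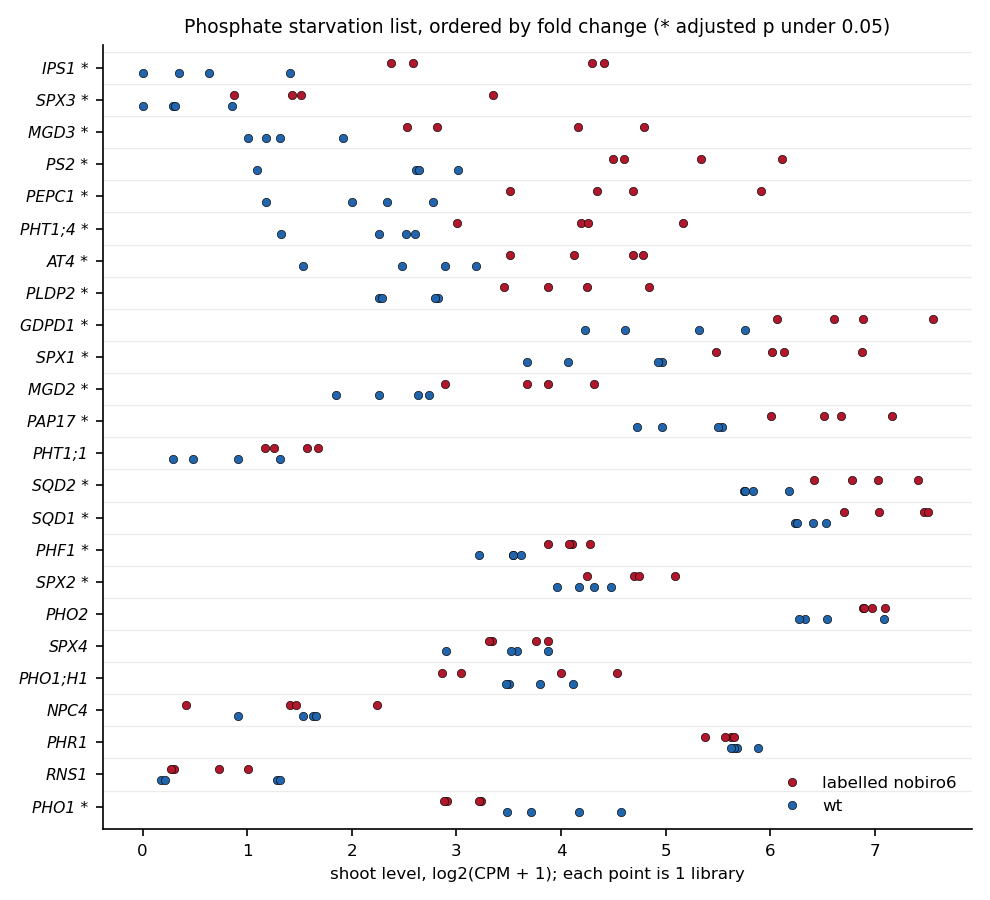
Level of the 24 phosphate starvation genes in each shoot library, as log2(CPM + 1), with the 4 nobiro6-labelled libraries drawn above the 4 wt libraries for each gene; an asterisk marks genes called between the groups. In 15 of the 16 genes called higher the 2 sets of points do not overlap, beside 1687 of all 2110 called genes.

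For part of the list the difference from wt was unequal in shoot and root. In a fit of all 40 libraries, 10 of the 24 genes were called with a larger difference from wt in shoot than in root, and none with a smaller one. The fitted shoot minus root difference was above 0 in 20 of the 24. Median log2 differences from wt were 1.34 in shoot and -0.139 in root. PHT1;4 was 25.5 ± 4.97 CPM in nobiro6-labelled and 35.0 ± 4.75 CPM in wt roots (SD, n = 4 each), and its shoot minus root difference was 2.81 ± 0.42 (adjusted p 1.8e-05). Across all genes, 12.9% of 20015 differed between the tissues in this way, 5.5% higher in shoot and 7.4% lower. This balance turned under several settings, for example to 1685 higher and 791 lower with DESeq2 and to 1478 and 502 with the groups compared fitted alone, and 1465 genes were called after thinning to equal depth.

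Aliphatic glucosinolate genes, which build the methionine-derived defence compounds of the mustard family, rose in the same shoots. Of 17 tested, 9 rose and none fell, with a median log2 difference of 0.559, beside 3.66% higher over all genes tested. Those that rose include steps of chain elongation, the core pathway and transport. BCAT4, the aminotransferase that starts chain elongation, had 199, 181, 205 and 228 CPM in the nobiro6-labelled shoots, against 69.1, 116, 77.0 and 123 CPM in wt shoots (1.08 ± 0.18, adjusted p 0.00065). CYP83A1, the cytochrome P450 that oxidises aldoximes, had 314, 277, 304 and 330.2 CPM in the nobiro6-labelled shoots, against 176, 224, 187 and 246 CPM in wt shoots (0.56 ± 0.09, adjusted p 0.00011). Both genes were higher in every nobiro6-labelled library than in any wt library. MAM3, a chain elongation synthase (1.06 ± 0.22), the dehydrogenase IMD1 (0.87 ± 0.18), the plastid transporter BASS5 (0.64 ± 0.16) and the C-S lyase SUR1 (0.39 ± 0.08) also rose. The list summed to 2383, 2007, 2345 and 2495 CPM in the nobiro6-labelled shoots and to 1295, 1756, 1477 and 1930 CPM in wt shoots. FMO GS-OX2, which oxidises the side chain of the finished compound and is not in that list, fell instead, with 3.21, 6.73, 2.70 and 2.2 CPM in the nobiro6-labelled shoots, against 16.5, 38.7, 30.5 and 21.0 CPM in wt shoots (-2.88 ± 0.36).

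In root the median difference of these genes lay below 0. The shoot minus root difference was called for 13 of the 17, all of them higher in shoot, with medians of 0.506 in shoot and -1.13 in root. It was called higher for 5.5% of all genes. CYP83A1 was 103 ± 20.8 CPM in nobiro6-labelled and 253 ± 23.1 CPM in wt roots (SD, n = 4 each), a shoot minus root difference of 1.78 ± 0.18, and BASS5 gave 2.22 ± 0.22. Against bz1728, 2 of the 17 were lower and none higher, beside 12.8% and 8.12% of all genes. Against nbr6-t1 the only call was CYP83A1 (0.45 ± 0.09, adjusted p 0.015), beside 0.713% of all genes.

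**Figure D4:**
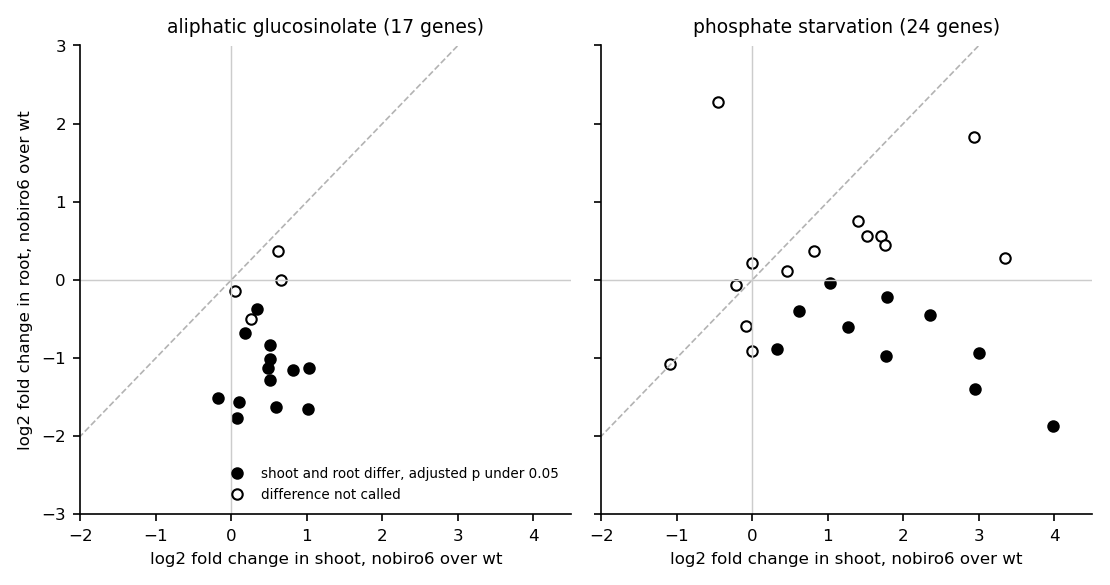
Log2 difference between nobiro6-labelled and wt libraries in shoot (x axis) and in root (y axis) from the fit of all 40 libraries, for 17 aliphatic glucosinolate and 24 phosphate starvation genes; filled points are genes whose shoot minus root difference was called, 13 and 10 of them. CYP83A1 lies at 0.51 in shoot and -1.28 in root.

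Genes of water transport and of sulfur and nitrogen nutrition fell in part. Of 17 aquaporins, the water channels of the plasma and vacuolar membranes, 10 fell and 1 rose, with a median of -0.319. Over all genes tested 8.47% were lower and 3.66% higher. TIP2;1, a tonoplast channel, had 665, 702, 670.3 and 769.9 CPM in the nobiro6-labelled shoots, against 1505, 1205, 1245 and 1309.9 CPM in wt shoots (-0.91 ± 0.10, adjusted p 2.3e-06). TIP1;2 (-0.49 ± 0.08), PIP1;3 (-0.49 ± 0.08), PIP2;7 (-0.42 ± 0.07), PIP2;6 (-0.32 ± 0.06) and PIP2;5 (-0.82 ± 0.19) fell. In 9 of the 10 the groups did not overlap, beside 1687 of all 2110 called genes. The channel that rose, PIP1;2, was named after its values were seen (0.19 ± 0.06; 0 or 1 called over the alternatives). Against bz1728 2 aquaporins were higher and 3 lower, beside 8.12% and 12.8% of all genes. Against nbr6-t1 2 were lower, TIP2;1 (-0.44 ± 0.10) and PIP2;6 (-0.27 ± 0.06), beside 0.466% of all genes.

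Of 12 genes of the sulfur deficiency response, 6 fell and none rose, with a median of -0.98. Over all genes tested 8.47% were lower and 3.66% higher. LSU1, a small protein induced by low sulfur, had 7.09, 5.57, 3.53 and 1.98 CPM in the nobiro6-labelled shoots, against 9.60, 24.0, 42.9 and 38.2 CPM in wt shoots (-2.63 ± 0.52, adjusted p 0.0034). SDI1, a repressor of glucosinolate synthesis, had 43.9, 31.3, 14.1 and 11.0 CPM in the nobiro6-labelled shoots, against 46.7, 107, 223 and 216 CPM in wt shoots (-2.54 ± 0.65). In both the groups stayed apart only narrowly, with wt replicate 1 the lowest of the wt shoots. The sulfate transporter SULTR2;1 (-0.68 ± 0.14), the glutathione-degrading enzyme GGCT2;1 (-3.33 ± 0.80), LSU2 (-1.39 ± 0.42) and BGLU28 (-3.01 ± 0.77) made up the 6. The count was 4 to 8 with 1 library left out and 2 when only nobiro6-labelled and wt shoots were fitted. Against bz1728 3 were lower, beside 12.8% of all genes.

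Beside 8.47% of all genes tested, 5 of 13 nitrogen uptake and assimilation genes fell, and none rose. These were the nitrate transporters NRT1.5 (-0.92 ± 0.22) and NRT1.7 (-0.58 ± 0.18), the ammonium transporter AMT1;1 (-0.54 ± 0.14), plastid glutamine synthetase GLN2 (-0.27 ± 0.07) and nitrite reductase NIR1 (-0.29 ± 0.10), and the groups overlapped in 4 of the 5. The count was 1 to 5 over the other settings. Cytosolic glutamine synthetase GLN1.3, outside that list, rose, with 60.7, 65.7, 59.1 and 55.1 CPM in the nobiro6-labelled shoots, against 32.1, 38.4, 32.1 and 35.3 CPM in wt shoots (0.80 ± 0.09). Of 10 sugar transport genes 4 fell: SWEET13 (-1.33 ± 0.25), SUC2 (-0.42 ± 0.10), SWEET16 (-0.89 ± 0.28) and SWEET2 (-0.38 ± 0.12); this count was 1 to 4 over the other settings. Of the iron genes, 1 of 15 deficiency genes passed, the nicotianamine synthase NAS1 (0.62 ± 0.20; lost in 8 of 17 alternatives), and none of 6 storage genes did in edgeR, DESeq2 or limma on TPM (1 had an unadjusted p under 0.05). Against bz1728 10 of the 15 iron deficiency genes were lower and 1 higher, beside 12.8% and 8.12% of all genes.

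Of 11 auxin response genes 4 fell, all of them Aux/IAA repressors, and none rose, beside 8.47% lower over all genes tested. IAA7 had 86.6, 91.9, 82.2 and 93.4 CPM in the nobiro6-labelled shoots, against 198, 169, 176 and 183 CPM in wt shoots (-1.04 ± 0.08, adjusted p 8e-10). It was also lower than in bz1728 (-0.79 ± 0.08) and nbr6-t1 (-0.48 ± 0.08), and its fall was deeper in shoot than in root (-0.93 ± 0.11). IAA19 (-1.39 ± 0.34), IAA17 (-0.48 ± 0.13) and IAA14 (-0.66 ± 0.19) were the others, and 2 to 5 were called over the other settings. IAMT1, which methylates indole-3-acetic acid and is not in that list, averaged 0.207 ± 0.0274 CPM in nobiro6-labelled and 3.20 ± 1.36 CPM in wt shoots (SD, n = 4 each; -3.86 ± 0.60).

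Of 13 ABA, cold and drought genes 4 fell and none rose: the protective proteins COR15A (-1.81 ± 0.40), COR47 (-0.74 ± 0.14) and ERD10 (-0.95 ± 0.22), and RD22 (-0.54 ± 0.12). Over all genes tested 8.47% were lower and 3.66% higher. In the defence lists few genes were called. The antimicrobial defensin PDF1.2, an ethylene and jasmonate marker, had 0, 0, 1.25 and 0 CPM in the nobiro6-labelled shoots, against 1.26, 11.9, 21.7 and 51.6 CPM in wt shoots (-6.04 ± 1.47, adjusted p 0.014). The wt values themselves spread widely, and bz1728 shoots were at 0, 0, 0.141 and 0 CPM. PR5, a marker of salicylic acid, had 2.19, 2.79, 2.08 and 5.27 CPM in the nobiro6-labelled shoots, against 11.4, 11.3, 15.7 and 28.9 CPM in wt shoots (-2.45 ± 0.45); it was 1 of 15 salicylic acid genes called, and 1 to 5 were called lower with 1 library left out. Of 22 jasmonate genes LOX3 alone passed in edgeR (-0.67 ± 0.19), with a list median of -0.315. An unadjusted p under 0.05 was found for 9 lower genes and 1 higher, and DESeq2 called 2 lower. With 1 library left out, 0 to 3 were called lower. Of 11 heat shock genes HSP17.4 (1.62 ± 0.50) and AT1G53540 (2.26 ± 0.64) rose with overlapping groups, HSP18.2 fell (-1.89 ± 0.54), and 0 to 4 were called higher over the other settings.

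Few photosynthesis genes and no cell cycle gene were called. The counts against wt in this paragraph stand beside 8.47% lower and 3.66% higher over all genes tested. Those of the clock list and of the TFIID and SAGA list were near the share lower. Of 38 nuclear photosynthesis genes 2 fell, RBCS3B (-0.31 ± 0.08) and SBPASE (-0.23 ± 0.07), with a list median of -0.0848. Of 17 genes of chlorophyll synthesis and greening 4 fell: the greening factors CGA1 (-0.90 ± 0.15) and GLK1 (-0.46 ± 0.12), and CHLM (-0.23 ± 0.07) and GUN4 (-0.26 ± 0.09), with 2 to 4 over the other settings. None of 22 cell cycle genes and none of 9 senescence genes passed in edgeR, DESeq2 or limma on TPM; 3 and 1 of them had an unadjusted p under 0.05. In the clock list GI (-0.54 ± 0.12) and BOA (-1.08 ± 0.30) fell, 2 of 18, in the floral transition list SPL3 (-0.77 ± 0.19), 1 of 15, and in the cytokinin list ARR16 (-0.98 ± 0.32; lost in 8 of 17 alternatives), 1 of 8. The flavonol synthase FLS1 was the 1 of 15 flavonoid genes that rose (0.69 ± 0.12). Against bz1728, in the nobiro6-labelled shoots, 17 photosynthesis genes were higher and 1 lower, 10 clock genes were lower and 1 higher, and 6 floral transition genes were lower. In that comparison 8.12% of all genes were higher and 12.8% lower. Of 24 TFIID and SAGA subunits tested, TAF12B and TAF1B fell; TAF1B had 0 counts in the nobiro6-labelled shoots and 15 in wt shoots, at least 2.65-fold lower. In the other lists with no call in a direction by edgeR, at most 2 genes had an unadjusted p under 0.05 in that direction, DESeq2 called at most 1, and limma on TPM at most 2. Other calls named above that were lost in at least 5 of 17 alternatives were those of NIR1 (14), GUN4 (13), CHLM (12), NRT1.7 (11), SWEET2 (9), HSP17.4 (9), LSU2 (9), SWEET16 (8), SBPASE (8), ERO2 (7), IAA14 (7), AT1G53540 (6), BOA (6) and IAA17 (5), and, of the 16 or 15 alternatives in which they were tested, SPX3 (8) and TAF1B (6).

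**Figure D5:**
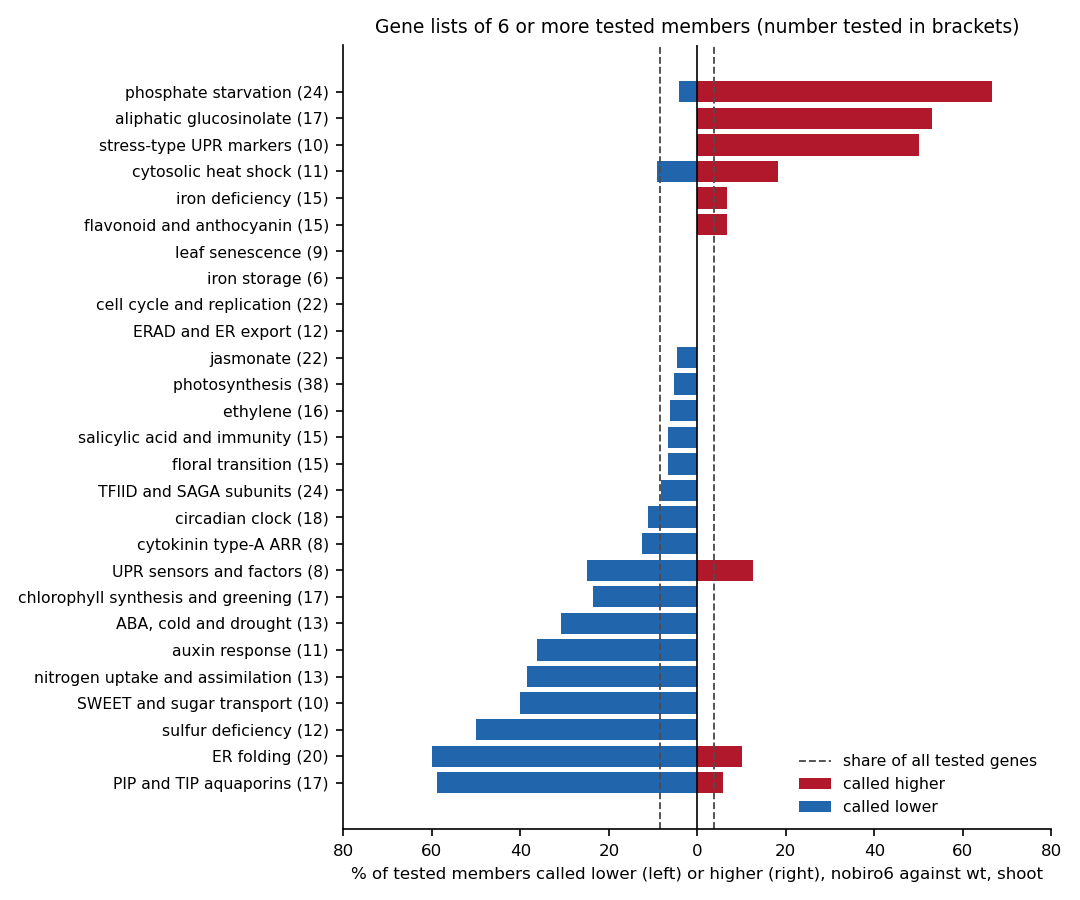
Share in percent of the tested members of each gene list called higher and called lower in nobiro6-labelled against wt shoots, for lists with at least 6 tested members. The dashed lines are the shares over all 17382 genes tested, 3.66% higher and 8.47% lower; the phosphate list reaches 66.7% higher and the ER folding list 60% lower.

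Further large falls lay outside these lists. XTH17, an enzyme that remodels xyloglucan, had 0.169, 0.696, 0.623 and 1.32 CPM in the nobiro6-labelled shoots, against 16.8, 12.7, 9.95 and 15.8 CPM in wt shoots (-4.32 ± 0.35). ACS11, which makes the ethylene precursor, had 1.52, 0.928, 1.25 and 1.54 CPM in the nobiro6-labelled shoots, against 13.9, 18.1, 7.74 and 9.57 CPM in wt shoots (-3.19 ± 0.48). It was higher than wt in root (2.51 ± 0.49), a shoot minus root difference of -5.76 ± 0.62. The receptor-like kinase CRK4 (-2.85 ± 0.42), the TRAF-like ZW9 (-3.43 ± 0.43), BAT1 (-3.18 ± 0.49) and the defensins PDF1.3 (-4.87 ± 1.07) and PDF1.2b (-4.38 ± 1.2) fell without overlap, which the naming rule required. The PDF1.2b call was lost in 5 of 16 alternatives, all 5 with 1 library left out. PDF1.3 and PDF1.2b share 12.7% and 16.2% of their 31-base stretches with other loci. IGMT1, an indole glucosinolate methyltransferase (-3.20 ± 0.39), shares 23.8% of its 31-base stretches with other loci, and the AT14A pair (-4.98 ± 0.43) has identical transcripts, so these values cannot be given to a single locus.

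A few loci were near 0 in the nobiro6-labelled shoots and clearly present in wt shoots, or the reverse. AT1G31690, of the copper amine oxidase family, had 1 count in the nobiro6-labelled shoots and 387 in wt shoots, a ratio of 205 with a counting interval of 36.5 to 8110; nbr6-t1 shoots were at 0.05 ± 0.10 CPM (SD, n = 4). AT4G17680 had 0.506, 0.928, 0.830 and 0.439 CPM in the nobiro6-labelled shoots, against 7.32, 6.19, 7.35 and 7.69 CPM in wt shoots (-3.38 ± 0.28). AT3G01345 was the reverse, with 14.5, 40.9, 12.9 and 5.27 CPM in the nobiro6-labelled shoots, against 0.758, 0.994, 0.237 and 0.539 CPM in wt shoots (4.87 ± 0.58). It was also higher than in bz1728 (5.17 ± 0.67) and nbr6-t1 (4.68 ± 0.62).

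Of the 15 largest rises under the naming rule, 4 were of genes in no list. WRKY23, a transcription factor, had 7.42, 7.66, 9.34 and 7.47 CPM in the nobiro6-labelled shoots, against 3.03, 2.87, 1.82 and 1.48 CPM in wt shoots (1.79 ± 0.22). The copper transporter gene COPT2 had 21.1, 27.2, 21.2 and 20.7 CPM in the nobiro6-labelled shoots, against 6.95, 9.72, 6.56 and 6.07 CPM in wt shoots (1.61 ± 0.19). CHR42 (1.65 ± 0.36) and the phosphatase gene PFA-DSP4 (1.61 ± 0.25) rose by similar fitted amounts. None of these 4 overlapped between the groups, which the naming rule required.

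For some genes that also differed from bz1728, the nobiro6-labelled mean lay outside the range between the bz1728 and wt means. TLL1, a lipase-like gene, had 43.0, 59.7, 55.6 and 69.4 CPM in the nobiro6-labelled shoots, 366, 309, 354 and 317 CPM in bz1728 shoots, and 222, 267, 249 and 216 CPM in wt shoots. FLP, which limits division in the stomatal lineage, averaged 9.80 ± 1.42, 42.6 ± 4.12 and 30.5 ± 4.61 CPM in the nobiro6-labelled, bz1728 and wt shoots (SD, n = 4 each), and UNE10, a phytochrome-interacting bHLH factor, 50.9 ± 2.45, 125 ± 9.57 and 121 ± 7.68 CPM. These 3 genes were lower than wt (-2.07 ± 0.13, -1.63 ± 0.15 and -1.25 ± 0.09) and than bz1728. FSD1, an iron superoxide dismutase, was higher than both, with 1174 ± 150.5, 633 ± 73.6 and 866 ± 81.3 CPM in the 3 groups (0.44 ± 0.09 against wt, 0.89 ± 0.09 against bz1728). The cuticle genes KCS10 (0.33 ± 0.07 against wt) and HTH (0.33 ± 0.07) behaved likewise.

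The nobiro6-labelled shoots differed from nbr6-t1 in fewer genes than from bz1728 or wt, with 124 called, 0.713% of those tested (0.247% higher, 0.466% lower); 1891 had an unadjusted p under 0.05. The count was 226 with DESeq2 and 60 to 139 with 1 library left out, the lowest without nbr6-t1 replicate 4, and the split was 59 higher and 41 lower without nobiro6 replicate 3. Besides the ER genes, BZIP17 and BGAL9 already named, BGLU33, a beta-glucosidase, was lower in the nobiro6-labelled shoots (30.1 ± 3.74 CPM, and 71.0 ± 20.4 CPM in nbr6-t1 shoots, SD, n = 4 each; -1.24 ± 0.17) and also lower than wt (-1.09 ± 0.17). ARP9, an actin-related protein gene, was higher at 28.2 ± 3.17 CPM in the nobiro6-labelled shoots, with 14.98 ± 3.02 CPM in nbr6-t1 and 14.6 ± 1.62 CPM in wt shoots (SD, n = 4 each; 0.91 ± 0.13 and 0.95 ± 0.12). SVB, a regulator of trichome growth, was at 299 ± 30.4, 217 ± 9.24 and 152 ± 17.39 CPM in the same order of groups (0.46 ± 0.08 against nbr6-t1, 0.97 ± 0.08 against wt). NAI2, a component of ER bodies like PYK10, had 42.0, 48.0, 47.7 and 50.5 CPM in the nobiro6-labelled shoots, against 109, 156, 105 and 131 CPM in wt shoots (-1.41 ± 0.10), and was lower than the 71.7 ± 4.99 CPM (SD, n = 4) of nbr6-t1 (adjusted p 0.0041).

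The shoot minus root test named further genes whose difference from wt was unequal between the tissues. Higher in shoot relative to root were BZIP28 (1.90 ± 0.16), the methyltransferase HOL1 (1.23 ± 0.12), the glutamine synthetase GSR2 (1.58 ± 0.15), the cytochrome b5 gene CB5-C (1.63 ± 0.17), methionine synthase MS2 (1.26 ± 0.14) and SBP2 (1.66 ± 0.18). GSR2 was 663 ± 72.4 CPM in nobiro6-labelled and 561 ± 22.2 CPM in wt shoots, and 702 ± 109.6 CPM in nobiro6-labelled and 1883 ± 169 CPM in wt roots (SD, n = 4 each). Lower in shoot relative to root were the fructose bisphosphatase gene FBP (-1.25 ± 0.13), GATA4 (-1.62 ± 0.18), the vitamin B6 synthase gene PDX1.1 (-1.41 ± 0.16), NAI2 (-1.22 ± 0.14), the starch synthase SS3 (-1.18 ± 0.14) and the annexin ANNAT3 (-2.51 ± 0.31). ANNAT3 was 1.78 ± 0.371 CPM in nobiro6-labelled and 6.17 ± 1.75 CPM in wt shoots, and 47.2 ± 11.8 CPM in nobiro6-labelled and 30.5 ± 2.36 CPM in wt roots (SD, n = 4 each). The CPM levels in shoot and root were scaled within each tissue. The shoot minus root differences came from the fit of all 40 libraries, with TMM scaling across both tissues. Their median over all genes tested was -0.0933.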

How the data were processed

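Reads were trimmed with Trimmomatic 0.39 and transcripts quantified with kallisto 0.44.0 by the authors, per the submitters' processing notes; the genome build of the tables is not given in the sources used here. The deposited expected counts (kallisto estimated counts, not scaled for depth) covered 27655 transcripts, 1 per locus. The deposited TPM values, scaled by the authors for effective length and total, were used in an alternative only. After rounding, edgeR 4.0.16 under R 4.3.3 (with limma 3.58.1) applied filterByExpr (count 10, total 15), TMM factors and two-sided robust quasi-likelihood F-tests to the 20 shoot libraries together; the shoot minus root difference used all 40. P-values were adjusted by Benjamini-Hochberg over all genes. SE is the size of the log2 change over the square root of its F value; it can be too small where counts are few. Bounds and 95% intervals cover counting error only. DESeq2 1.42.0 was an alternative, as were other scalings, filters, limma on log2(TPM + 1), thinning to equal depth and leaving out libraries. The members and lists were chosen with earlier results of these data known. Named genes are the mutated genes and neighbours, all members of 3 ER lists, up to 6 per other list by adjusted p, the 15 largest called changes each way with a RefSeq symbol, a mean log2 CPM of at least 1 and no overlap, loci under 1 CPM in one group and at least 5 CPM in the other, and the 8 strongest each way in the other 3 comparisons. Symbols and sequences are from RefSeq (TAIR10.1), in which 27445 loci were found by identifier. Same-numbered nobiro6 and wt libraries gave residual correlations of -0.337, 0.147, -0.113 and 0.0674, and the main fit did not treat them as pairs. So few values cannot show whether same-numbered libraries shared a plate or harvest. The method was tested on simulated data.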

Additional observations from a re-analysis of the deposited data

Results flagged for a closer look

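Dixon's criterion at 95% was applied to 139 groups of 4 nobiro6-labelled or wt shoot libraries. The genes were the mutated genes and neighbours, the 3 ER lists, the largest called changes and the loci near 0 in one group. Genes named only from the other lists or comparisons were not included. In 10 groups a library stood apart from the other 3, which chance gives for about 1 group in 20. In the nobiro6-labelled shoots these were AT3G10815 (3.71 CPM, the others 0.439 to 0.696), BGAL9 (1.66 CPM, the others 0.844 to 0.928), AT4G20310 (10.7 CPM, the others 6.02 to 6.81), ERDJ3A (23.4 CPM, the others 19.5 to 20.1), BIP2 (127 CPM, the others 88.0 to 92.1), PDIL1-1 (45.2 CPM, the others 35.3 to 36.9), SPX3 (9.23 CPM, the others 0.830 to 1.86), WRKY23 (9.34 CPM, the others 7.42 to 7.66) and COPT2 (27.2 CPM, the others 20.7 to 21.2). In wt shoots it was BZIP49 (0 CPM, the others 0.316 to 0.379). The difference from wt was unequal in shoot and root, by the interaction test in edgeR, for 2583 genes. Among the named ones it was higher in shoot for BZIP28 (1.90), HOL1 (1.23), GSR2 (1.58), CYP83A1 (1.78), CB5-C (1.63), BASS5 (2.22), MS2 (1.26) and SBP2 (1.66), and lower for FBP (-1.25), GATA4 (-1.62), ACS11 (-5.76), IAA7 (-0.93), PDX1.1 (-1.41), NAI2 (-1.22), SS3 (-1.18) and ANNAT3 (-2.51), on the log2 scale.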

How the results depend on the processing

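The number of genes that differed from wt in the nobiro6-labelled shoots was 2110, and 1441 (thinned to equal depth) to 2701 (limma on log2 TPM) over the alternatives, 1663 to 1789 with 1 library left out. The TPM scaling moved the median of all genes by 0.113 and turned the split, with 1829 higher and 872 lower. Against bz1728 the count was 3644, and 2846 to 3516 with 1 library left out. Against nbr6-t1 it was 124, 226 with DESeq2, and 60 to 139 with 1 library left out; the split was 52 higher and 38 lower with TPM, and 59 higher and 41 lower without nobiro6 replicate 3. The shoot minus root difference was called for 2583 genes (1101 higher, 1482 lower), 1465 after thinning (797 higher, 668 lower), and 2073 to 2561 with 1 library left out. Its split was 1685 and 791 with DESeq2, 1501 and 714 with RLE factors, 1255 and 981 with upper-quartile factors, 2490 and 895 with TPM, and 1478 and 502 with the groups compared fitted alone, so the balance of directions was not stable over these settings. With the replicate number as a block the 4 counts were 2014, 3532, 118 and 2569, all within 1.5 times the main ones. The labels do not say whether the numbers pair the samples. Of the 133 named genes called against wt, 0 reversed under any alternative in which they were tested, and 107 to 118 stayed called with 1 library left out. With only nobiro6-labelled and wt shoots fitted, 97 of the 126 tested stayed called, and 1456 genes differed in all. The named genes that stayed called were 106 of 131 after thinning, 108 of 133 with limma on TPM and 127 of 133 with DESeq2. The cause of these shifts was not tested. The nobiro6-labelled shoots were sequenced less deeply than wt shoots, so falls of genes near 0 are bounded by 1 to 3 counts.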

Other observations

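In most of the cell wall, metabolism and defence families below, grouped by the annotation's product names after values were seen, more of the called members were lower than higher in the nobiro6-labelled against wt shoots. Of 14 fasciclin-like arabinogalactan genes tested, 9 were lower and none higher, and of 20 other arabinogalactan protein genes 7 were lower and none higher. Of 22 xyloglucan endotransglucosylase/hydrolase genes, which cut and rejoin wall xyloglucan, 9 were lower and 1 higher. Expansins, which loosen walls, had 6 of 17 lower and 1 higher, and pectin lyase-like genes 12 of 37 lower and 1 higher. UDP-glycosyltransferases had 28 of 89 lower and 2 higher, cytochrome P450 genes 23 of 99 lower and 3 higher, and disease resistance genes of the NB-ARC and TIR-NBS type 18 of 104 lower and 2 higher. Lipid-transfer proteins went both ways, with 9 of 46 higher and 8 lower. Ribosomal protein genes had 3 of 311 higher and 6 lower. These counts stand beside 3.66% higher and 8.47% lower over all genes tested.

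Of the loci noticed after values were seen, AT1G04660 had 0 counts in the nobiro6-labelled shoots and 240 in wt shoots, at least 42.3-fold lower, and nbr6-t1 shoots stood at 0.124 ± 0.156 CPM (SD, n = 4). AT1G75945 averaged 14.6 ± 3.40 CPM in nobiro6-labelled, 0.363 ± 0.123 CPM in nbr6-t1, 0.0612 ± 0.122 CPM in taf12-t1 and 11.1 ± 0.83 CPM in wt shoots (SD, n = 4 each).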
